A study of Mus musculus with 15 samples.

Results

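The collagen genes of the mouse were followed through the conversion of mouse embryonic fibroblasts (MEFs) into induced myogenic progenitor cells (iMPCs), which resemble muscle stem cells. The set comprised every protein-coding gene whose symbol is Col, a type number, the letter a and a chain number, and 44 of the 35675 annotated genes in the files met this rule. They lie on 15 chromosomes and were split into 11 fibrillar, 6 basement membrane, 9 FACIT and 18 other genes. FACIT stands for fibril-associated collagens with interrupted triple helices. All 44 passed the filter on low counts, so that each had a test among the 19331 genes fitted.

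Bulk RNA-seq was available for 15 cultures, which were 3 MEF lines, each from a single embryo, in 5 conditions. All carried the genotype Tg:Pax7-nGFP/C57BL6;DBA2, a reporter of Pax7, and all were kept in iMPC medium and labelled day 10. In MyoD + F/R/C + SP, as in MyoD + F/R/C + CP, cells were transfected 4 times with synthetic mRNA for MyoD, the transcription factor that sets the muscle programme, in medium with the interferon-binding protein B18R. They also received F/R/C and either SP600125 (SP), an inhibitor of the kinase JNK, or CP690550 (CP), an inhibitor of the JAK kinases. F/R/C denotes forskolin, which raises cAMP, RepSox, an inhibitor of the TGF-β type I receptor, and a CHIR compound that inhibits GSK3. MyoD + F/R/C cells had the mRNA, B18R and F/R/C, +MyoD cells had the mRNA and B18R alone, and MEFs were untreated. In comparisons with MEFs, MyoD, the transfection and B18R therefore cannot be told apart. The deposited names of the MEF libraries mark day 0 whereas their labels give day 10, so culture time may differ there too.

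Collagens are proteins of the extracellular matrix in which chains wind into a triple helix. Fibrillar collagens assemble into the load-bearing fibrils of connective tissue, type IV collagens form the sheet-like network of basement membranes, and FACIT collagens sit on the surface of fibrils. In skeletal muscle, fibroblasts lay down most of the fibrillar matrix around the fibres, while types IV, VI, XV and XVIII are found in or close to the basement membrane that also covers muscle stem cells.

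The promoters of 6 members are printed here because their genes moved in ways that the results below turn on. Col4a1 and Col4a2 moved together, Col10a1 and Col8a1 were high after MyoD mRNA and low with F/R/C, and Col13a1 and Col23a1 were highest with F/R/C. Sequences are RefSeq windows of 250 bases before to 50 bases after the gene start on GRCm38.p6, written 5′ to 3′ along the gene. Capitals mark CAGCTG (an E-box of the kind MyoD binds), CCAAT (the CCAAT box), TATAAA (the TATA box) and GGGCGG (the GC box), each on either strand.

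Col4a1, chr8:11312777-11313076, minus strand: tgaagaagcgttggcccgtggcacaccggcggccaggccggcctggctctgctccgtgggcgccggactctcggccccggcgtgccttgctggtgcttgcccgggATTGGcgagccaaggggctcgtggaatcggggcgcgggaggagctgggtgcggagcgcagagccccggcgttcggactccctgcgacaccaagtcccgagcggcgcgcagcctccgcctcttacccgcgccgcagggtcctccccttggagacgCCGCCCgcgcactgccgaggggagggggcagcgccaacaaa
Col4a2, chr8:11312555-11312854, plus strand: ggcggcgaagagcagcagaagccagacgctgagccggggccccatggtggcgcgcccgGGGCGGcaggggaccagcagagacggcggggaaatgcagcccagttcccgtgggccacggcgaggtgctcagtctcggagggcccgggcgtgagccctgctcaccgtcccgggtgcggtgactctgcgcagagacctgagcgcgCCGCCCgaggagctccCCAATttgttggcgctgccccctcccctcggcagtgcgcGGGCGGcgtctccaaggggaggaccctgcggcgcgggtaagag
Col10a1, chr10:34389731-34390030, plus strand: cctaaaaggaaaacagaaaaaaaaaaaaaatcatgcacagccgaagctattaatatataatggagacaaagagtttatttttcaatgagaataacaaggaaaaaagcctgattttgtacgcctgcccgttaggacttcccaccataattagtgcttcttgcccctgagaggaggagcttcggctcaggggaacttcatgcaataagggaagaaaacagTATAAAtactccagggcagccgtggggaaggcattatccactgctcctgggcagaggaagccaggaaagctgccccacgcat
Col13a1, chr10:61979059-61979358, minus strand: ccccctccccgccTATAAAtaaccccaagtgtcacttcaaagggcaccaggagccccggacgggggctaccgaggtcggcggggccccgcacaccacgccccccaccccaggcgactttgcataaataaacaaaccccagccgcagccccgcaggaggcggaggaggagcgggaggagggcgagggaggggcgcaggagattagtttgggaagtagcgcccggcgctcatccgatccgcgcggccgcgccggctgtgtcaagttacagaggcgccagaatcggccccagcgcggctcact
Col8a1, chr16:57754688-57754987, minus strand: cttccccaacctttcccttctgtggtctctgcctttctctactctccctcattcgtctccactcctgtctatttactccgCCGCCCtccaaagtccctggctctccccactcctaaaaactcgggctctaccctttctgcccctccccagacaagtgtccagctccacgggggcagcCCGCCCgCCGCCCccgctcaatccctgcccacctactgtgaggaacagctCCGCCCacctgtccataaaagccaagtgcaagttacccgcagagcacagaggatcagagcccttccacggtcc
Col23a1, chr11:51289670-51289969, plus strand: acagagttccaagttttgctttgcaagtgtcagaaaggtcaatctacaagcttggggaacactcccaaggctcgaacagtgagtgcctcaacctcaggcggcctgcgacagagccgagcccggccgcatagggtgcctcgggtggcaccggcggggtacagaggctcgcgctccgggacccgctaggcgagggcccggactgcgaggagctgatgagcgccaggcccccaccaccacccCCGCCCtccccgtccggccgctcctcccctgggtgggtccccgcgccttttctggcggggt

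Promoter windows were found for 35 of the 44 members. Col4a1 and Col4a2 run away from each other from starts that lie within 21 bases (11312826 on the minus strand and 11312805 on the plus strand of chromosome 8), so that their windows share 78 bases. The GC box just inside both starts is the same site read from either strand. Col10a1 had a TATAAA beginning 32 bases before its start, and in Col13a1 the match lay 237 bases before it. Of the 35 members, 7 held CAGCTG, 13 CCAAT, 5 TATAAA and 22 GGGCGG. Among 32851 promoters of the same length, 16.3%, 37.4%, 13.6% and 35.7% held these letters in the same order. None of the 6 printed windows contained CAGCTG. A match is a description of letters only.

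Total counts per library were between 29393872 and 41885769, and no pair of replicates agreed within sampling noise. The collagen genes together took 3.25 to 3.91% of counts in MyoD + F/R/C + SP, 4.12 to 4.72% in MyoD + F/R/C + CP, 2.97 to 4.47% in MyoD + F/R/C, 2.75 to 5.86% in +MyoD and 0.786 to 0.954% in MEFs. The +MyoD libraries spread most, with a biological coefficient of variation of 0.488 over all genes against 0.214 in MEFs. Of the 22 collagen genes with at least 10 TPM (a level corrected for transcript length and library depth) in +MyoD, 16 were highest in line 2, and results that rest on that library are given without it too. Mitochondrial genes took 2.52 to 5.06% of counts in the 9 libraries with F/R/C and 1.31 to 1.80% in the other 6. Their part in the collagen results was not tested.

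Markers of several cell types differed between conditions. Of 10 fibroblast genes, 7 were called higher and 2 lower in MyoD + F/R/C versus MEFs (median log2 difference 1.85), 7 higher and 0 lower in +MyoD versus MEFs (1.70), and 3 higher and 2 lower in MyoD + F/R/C versus +MyoD (0.42). Their summed level was 7292 to 8792 TPM in MyoD + F/R/C, 12734 to 15153 TPM in +MyoD and 8999.9 to 9193 TPM in MEFs. Vim, an intermediate filament gene, makes up much of that sum (3277, 6404 and 7140.1 TPM on average in the same order). Thy1 (2385, 2379 and 486 TPM) and Fn1 (708, 3271 and 911 TPM) also weigh on it. The sum therefore does not follow most of its members. All 10 skeletal muscle genes were called higher in each of these comparisons, and they summed to 4506 to 7925 TPM in MyoD + F/R/C, 1488 to 1775 TPM in +MyoD and 61.0 to 94.1 TPM in MEFs. Smooth muscle genes summed to 1962 to 4354 TPM, 4271 to 9218 TPM and 5811 to 7264 TPM, Schwann cell genes to 45.7 to 103 TPM, 10.4 to 23.5 TPM and 14.3 to 21.6 TPM, and epithelial genes to 18.0 to 36.6 TPM, 20.4 to 46.7 TPM and 88.1 to 106 TPM, with the conditions in that order. Few genes carried much of each sum. Egr2 and S100b averaged 44.3 and 27.9 TPM in MyoD + F/R/C, where the Schwann cell factor Sox10 averaged 1.10 TPM (1.75 TPM in +MyoD). Acta2, Tagln and Krt18 weighed likewise on the smooth muscle and epithelial sums. In MyoD + F/R/C versus +MyoD, 1 of 6 smooth muscle genes was called higher and 4 lower. Of 6 Schwann cell genes 2 were higher and 0 lower, and of 5 epithelial genes tested 1 was higher and 0 lower. Of all genes, 26.6% were called higher and 21.6% lower in MyoD + F/R/C versus MEFs. The shares were 22.8% and 18.0% in +MyoD versus MEFs, and 10.9% and 8.39% in MyoD + F/R/C versus +MyoD. In bulk cultures, fewer cells of a type and less RNA per cell cannot be told apart, and the part of cell composition in what follows was not tested.

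The summed level of all 44 collagen genes averaged 11374 ± 1051 TPM in MyoD + F/R/C + SP, 14096 ± 938 in MyoD + F/R/C + CP, 12247 ± 2207 in MyoD + F/R/C, 13278 ± 5082 in +MyoD and 2673 ± 272 in MEFs (SD, n = 3 each). Every transfected condition thus stood above MEFs, with no overlap between libraries. Among the transfected conditions only SP and CP did not overlap, at 10281 to 12377 TPM with SP and 13198 to 15069 TPM with CP. Fibrillar genes made up 52.9 ± 1.79% of this sum in MyoD + F/R/C, 62.6 ± 11.2% in +MyoD and 47.9 ± 2.8% in MEFs. Basement membrane genes made up 12.6 ± 4.38%, 19.2 ± 9.47% and 34.0 ± 1.57% of it in the same 3 conditions. The other types made up 29.6 ± 3.0%, 14.7 ± 2.36% and 12.7 ± 1.19%, and the 3 libraries with F/R/C all lay above the +MyoD libraries there. FACIT genes made up 4.89 ± 1.37%, 3.47 ± 0.42% and 5.33 ± 0.45%, with the same conditions in the same order.

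The ranking of single genes by summed TPM changed as well. Col4a1 held the highest mean level in MEFs (583 TPM), Col1a1 in +MyoD (3152 TPM) and Col3a1 in all conditions with F/R/C (2373 TPM with SP, 2866 TPM with F/R/C alone and 3267 TPM with CP). Col3a1 was only the seventh in MEFs, and Col18a1 was among the first 5 in each F/R/C condition. The means of Col1a1 and Col3a1 in +MyoD do not differ beyond their spread (SD 2290.05 and 1057 TPM). Ranks here use TPM summed over all transcripts of a gene. On the most abundant transcript, Col3a1 to Col1a1 was 1.02 ± 0.20 with SP, 1.05 ± 0.08 with F/R/C alone and 0.94 ± 0.04 with CP. In MEFs that transcript carried 65.5% of Col4a1 TPM and 88.6% of Col1a1 TPM. The first rank in MEFs and with F/R/C was therefore not settled. At least 1 TPM on average was reached by 35, 37 and 37 members in MyoD + F/R/C + SP, MyoD + F/R/C + CP and MyoD + F/R/C, by 36 in +MyoD and by 24 in MEFs. Col4a3, Col4a4 and Col9a1 stayed under 1 TPM in all 5 conditions.

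**Figure D1:**
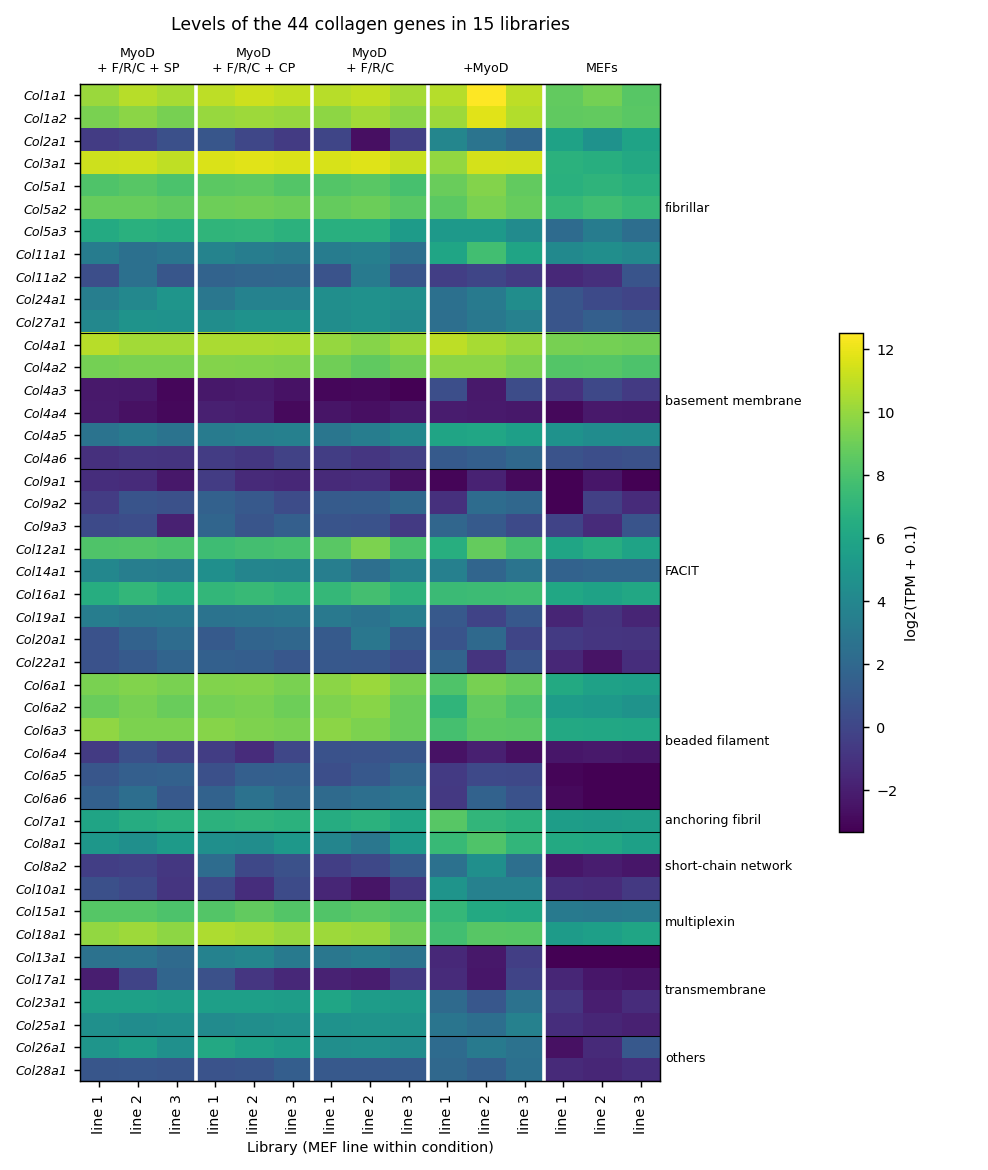
Heat map of log2(TPM + 0.1) for the 44 collagen genes (rows, by class) in 15 libraries (columns, 3 lines per condition). Col4a1, Col1a1 and Col1a2 are the brightest rows in MEFs, and Col6a1, Col6a2, Col6a3, Col15a1, Col18a1, Col23a1 and Col25a1 are brighter in every transfected library than in any MEF library.

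**Figure D2:**
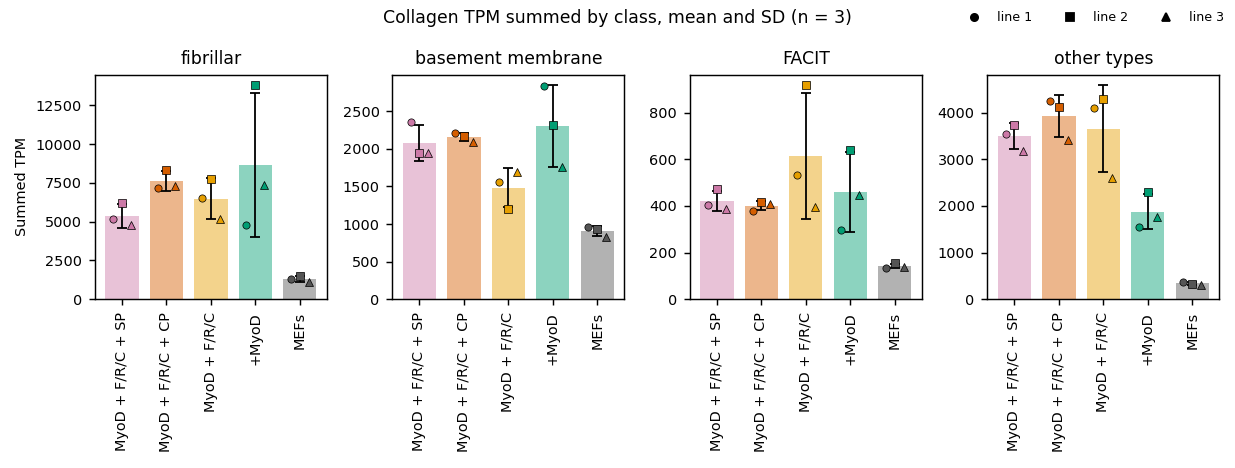
TPM summed over fibrillar, basement membrane, FACIT and other collagen genes in each condition. Bars give the mean, whiskers the SD of 3 libraries and symbols the MEF lines, and the fibrillar sum of +MyoD line 2 (13804 TPM) stands above the other 14 libraries.

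Transfection with MyoD mRNA was compared with untreated MEFs to ask how the collagen genes differed after transfection without F/R/C. Of 44 members, 37 rose, 1 fell and 6 were not called in edgeR's quasi-likelihood test, where a call needs an adjusted p of at most 0.05 and a log2 fold change over 0.5 in size. Among all genes tested, 22.8% were called higher and 18.0% lower. The median log2 fold change was 2.25 over the members and 0.12 over all genes. Without +MyoD line 2, 35 members were called higher and 1 lower. Myod1 itself averaged 2103 TPM in +MyoD and 0.31 TPM in MEFs. Reads from the transfected mRNA and from the cells' own gene were not told apart.

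Among the fibrillar genes 10 rose and 1 fell after MyoD mRNA. Col3a1, the type III chain that accompanies type I in elastic tissues and in muscle, had 971, 2819.6 and 2781 TPM in +MyoD lines 1 to 3, against 112, 97.9 and 74.1 TPM in MEFs. This log2 difference of 4.34 ± 0.36 (SE) had an edgeR adjusted p of 2.09e-07, and each line moved the same way. Col1a1, the main chain of type I collagen, had 1699.5, 5792 and 1964 TPM in +MyoD and 417, 592 and 329 TPM in MEFs, a rise of 2.87 ± 0.43 (edgeR adjusted p = 5.3e-05). Col1a2, its partner chain, had 1143, 3503 and 1623 TPM against 398, 409 and 349.7 TPM in MEFs, a rise of 2.33 ± 0.33 (edgeR adjusted p = 3.89e-05). The groups did not overlap for any of the 3 genes, and line 2 was the highest +MyoD library for each. Col11a1, a type XI chain best known from cartilage, had 62.4, 206 and 59.4 TPM in +MyoD and 18.0, 22.6 and 16.4 TPM in MEFs, a rise of 2.31 ± 0.44 (edgeR adjusted p = 0.000524).

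Col2a1, the type II chain of cartilage, was the member that fell. It had 15.1, 6.56 and 3.80 TPM in +MyoD, against 56.6, 27.0 and 57.7 TPM in MEFs, a log2 difference of -2.79 ± 0.60 (edgeR adjusted p = 0.00132). All 3 lines were lower after transfection. A list of 10 chondrocyte markers without collagens summed to 25.5 to 57.9 TPM in +MyoD and 9.18 to 13.2 TPM in MEFs. Of the 7 that could be tested, 1 was called higher and 1 lower, beside 22.8% and 18.0% of all genes. Prg4, the lubricant of joint surfaces, averaged 30.7 TPM in +MyoD and 0.39 TPM in MEFs and made up most of the +MyoD sum. The cartilage proteoglycan gene Acan averaged 0.31 TPM in +MyoD and 1.36 TPM in MEFs, and the chondrocyte factor Sox9 7.92 and 8.54 TPM. The cartilage markers Cnmd, Matn1 and Snorc had 0 counts in both +MyoD and MEFs.

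In the basement membrane class 4 of 6 genes rose. Col4a1 and Col4a2, which together form the common type IV network, had 1923, 1383 and 1077 TPM and 853, 866 and 626 TPM in +MyoD. In MEFs they had 614, 597 and 539 TPM and 313, 317 and 269 TPM. Their log2 differences were 1.19 ± 0.18 and 1.26 ± 0.16 (edgeR adjusted p = 6.79e-05 and 1e-05), and the groups did not overlap for either gene. Col4a5 and Col4a6, a second pair of type IV chains, also rose, whereas Col4a3 and Col4a4 were not called at their low levels.

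FACIT genes rose in 7 of 9 cases. Col16a1 had 176, 188 and 195 TPM in +MyoD and 67.6, 54.3 and 73.1 TPM in MEFs, a rise of 1.48 ± 0.21 (edgeR adjusted p = 3e-05) that was even over the lines. Col12a1, a FACIT collagen of tendon and muscle fascia, was uneven, with 97.7, 434 and 234 TPM in +MyoD against 61.8, 93.9 and 58.4 TPM in MEFs. Its rise of 1.41 ± 0.40 (edgeR adjusted p = 0.00913) became 0.83 without +MyoD line 2 and was then not called. Over the alternatives tried, edgeR or DESeq2 adjusted p lay between 0.000416 and 0.078. Col9a1 and Col9a3, chains of cartilage type IX collagen, were not called.

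Among the other types 16 of 18 genes rose and none fell. The 3 main chains of type VI collagen, which makes beaded microfilaments around muscle fibres, all rose. Col6a1 had 277, 609 and 451 TPM in +MyoD and 78.8, 52.4 and 48.2 TPM in MEFs, a rise of 2.79 ± 0.30 (edgeR adjusted p = 2.17e-06). Col6a2 rose by 2.88 ± 0.36 and Col6a3 by 2.09 ± 0.24 (edgeR adjusted p = 1.13e-05 and 3.85e-06). Of the 3 alternative chains, Col6a5 had 299 counts over the +MyoD libraries and 3 over the MEF libraries, a ratio of 109 with a 95% counting interval of 37 to 532. Col6a6 had 0.52, 3.01 and 1.47 TPM in +MyoD and was at or near 0 in MEFs (0.034, 0 and 0 TPM), and Col6a4 was not called.

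Col15a1, a basement membrane collagen needed for muscle integrity in mice, had 150.2, 79.6 and 72 TPM in +MyoD and 8.65, 8.03 and 8.70 TPM in MEFs. That rise of 4.19 ± 0.26 (edgeR adjusted p = 1.91e-08) was present in all lines. Col18a1, the source of the endostatin fragment, had 210.2, 336 and 323 TPM against 41.7, 48.0 and 62.2 TPM in MEFs, a rise of 2.43 ± 0.29 (edgeR adjusted p = 5.92e-06). Both multiplexins, as types XV and XVIII are called, were thus higher in each transfected line.

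The 3 short-chain network genes all rose. Col10a1, the collagen of hypertrophic cartilage, had 28.9, 12.4 and 12.2 TPM in +MyoD and 0.33, 0.28 and 0.51 TPM in MEFs, a rise of 5.40 ± 0.66 (edgeR adjusted p = 7.88e-06). Col8a2 rose by 6.46 ± 1.05 (edgeR adjusted p = 0.000123), with 5.79, 23.6 and 5.34 TPM in +MyoD and 0.091, 0.15 and 0.09 TPM in MEFs. Col8a1, its partner in vessel walls and cornea, had 161, 286 and 138 TPM against 79.7, 72.5 and 51.7 TPM in MEFs, a rise of 1.37 ± 0.43 (edgeR adjusted p = 0.0167). The Col8a1 call was lost without +MyoD line 2 (0.94) or without MEF line 3 (1.22), with edgeR or DESeq2 adjusted p between 0.00643 and 0.0995 over the alternatives. The groups did not overlap for these 3 genes.

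Col7a1, the anchoring fibril collagen of skin, had 341, 137 and 112 TPM in +MyoD and 44.3, 40.3 and 45.2 TPM in MEFs, a rise of 2.45 ± 0.34 (edgeR adjusted p = 2.63e-05). The transmembrane genes Col13a1, Col23a1 and Col25a1 were close to 0 in MEFs and rose, though to single-digit levels in most libraries. Col13a1 had 60 counts over the +MyoD libraries and 0 in all MEF libraries, so that it was at least 21.9-fold higher, taking 3 counts over the group as the floor. Col25a1 had 7.11, 5.24 and 12.3 TPM in +MyoD against 0.31, 0.23 and 0.17 TPM in MEFs, a rise of 5.04 ± 0.27 (edgeR adjusted p = 5.41e-09). Col17a1, a component of epithelial hemidesmosomes, was not called. With Col13a1 at its bound, the median of the 4 transmembrane genes was 4.11 in place of 4.40.

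**Figure D3:**
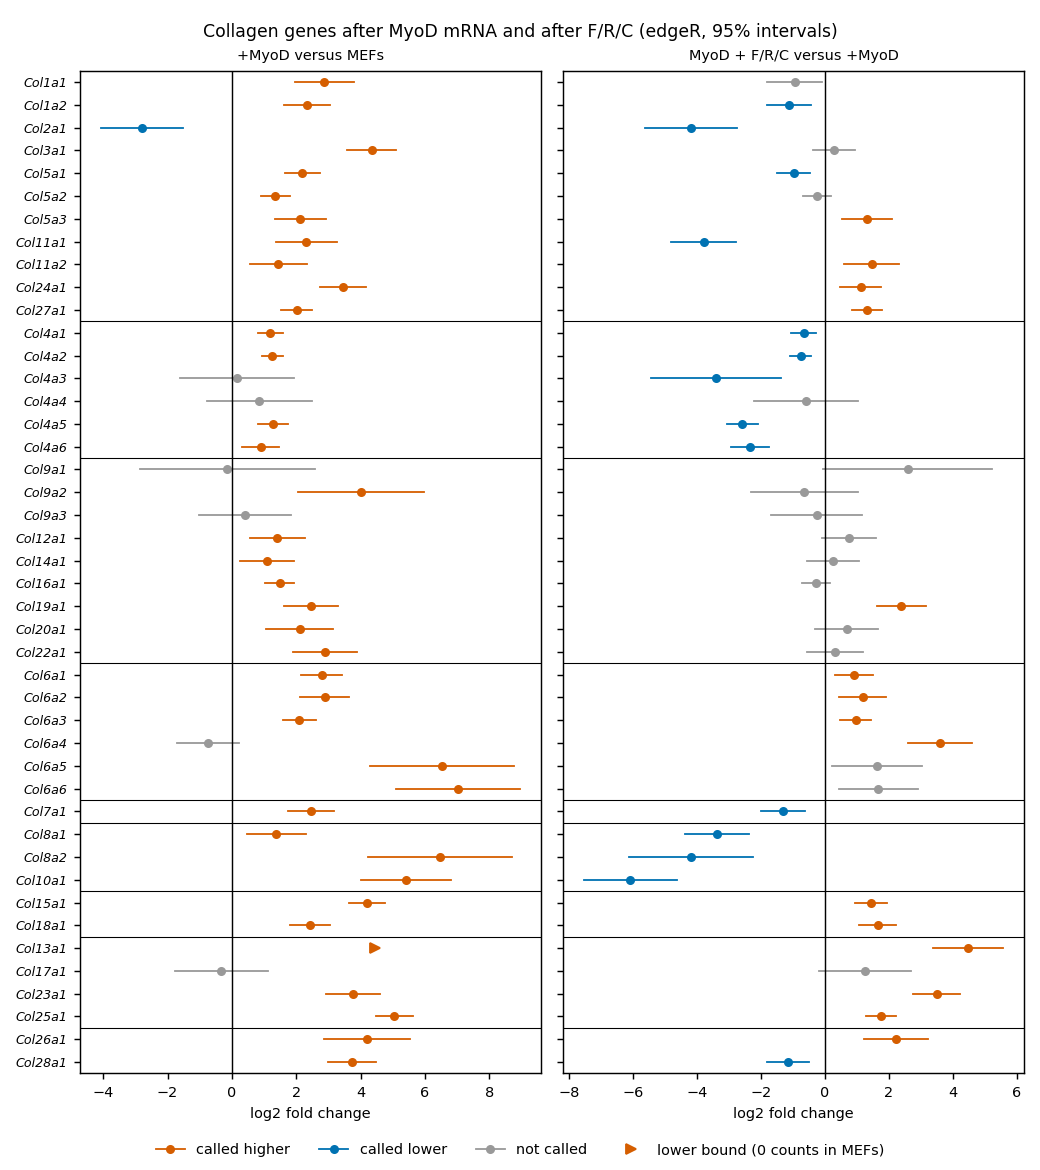
Log2 fold changes (points) with 95% intervals (lines) for the 44 collagen genes in +MyoD versus MEFs (left) and MyoD + F/R/C versus +MyoD (right), coloured by the edgeR call. On the left 37 genes are called higher and 1 lower, and on the right 15 higher and 14 lower.

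Adding F/R/C to MyoD mRNA split the family. Compared with +MyoD, 15 of the 44 genes rose, 14 fell and 15 were not called in edgeR, beside 10.9% of all genes called higher and 8.39% called lower. The median log2 fold change was 0.30 over the members and 0.03 over all genes. Leaving out single libraries gave 10 to 18 genes called higher and 12 to 14 called lower. Without +MyoD line 2 there were 18 higher and 13 lower, and without MyoD + F/R/C line 2 there were 10 higher and 13 lower. A fit of only the 6 libraries compared called 9 higher and 7 lower. The shares of all genes above belong to the fit of all 15 libraries only.

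The genes that rose were mostly outside the abundant fibrillar and type IV chains. They were 10 of the 18 other types, 4 of 11 fibrillar genes, 1 of 9 FACIT genes and 0 of 6 basement membrane genes. Both multiplexins, 4 of 6 type VI genes and 3 of 4 transmembrane genes were among them. The 14 that fell were 5 of 6 basement membrane genes, 4 fibrillar genes, all 3 short-chain network genes, Col7a1 and Col28a1.

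Col13a1 rose most, and its class rose in 3 of 4 genes. Col13a1, which in mice is needed for maturation of the neuromuscular junction, had 7.51, 10.0 and 6.46 TPM in MyoD + F/R/C and 0.26, 0.099 and 0.68 TPM in +MyoD, a rise of 4.48 ± 0.51 (edgeR adjusted p = 4.92e-05). Col23a1 had 62.8, 43.4 and 39.7 TPM in MyoD + F/R/C and 4.30, 1.84 and 6.12 TPM in +MyoD, a rise of 3.49 ± 0.35 (edgeR adjusted p = 8.49e-06). Col25a1, which developing mouse muscle needs to attract motor axons, had 26.8, 29 and 27.5 TPM against 7.11, 5.24 and 12.3 TPM in +MyoD, a rise of 1.74 ± 0.22 (edgeR adjusted p = 4.87e-05). The lowest MyoD + F/R/C library lay above the highest +MyoD library for each of the 3.

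Type VI chains were also higher with F/R/C. Col6a1 had 868, 1126 and 631 TPM in MyoD + F/R/C and 277, 609 and 451 TPM in +MyoD, a rise of 0.90 ± 0.28 (edgeR adjusted p = 0.0297). Col6a2 had 687, 837 and 466 TPM against 130.3, 423 and 272 TPM in +MyoD, a rise of 1.17 ± 0.34 (edgeR adjusted p = 0.0222). Col6a3 had 852, 655 and 468 TPM against 232, 361 and 353 TPM in +MyoD, a rise of 0.95 ± 0.23 (edgeR adjusted p = 0.00742). The groups did not overlap, but the margin was small for Col6a1 and Col6a2. The Col6a1 call was lost without +MyoD line 1 (0.64) or line 3 (0.89) and without MyoD + F/R/C line 1 (0.93) or line 2 (0.65), and that of Col6a2 without +MyoD line 3 (1.13) and without MyoD + F/R/C line 1 (1.16) or line 2 (0.94). All 3 calls were lost in the fit of only the 6 libraries compared (0.92, 1.19 and 0.97), where the edgeR adjusted p of Col6a3 was 0.0597, its highest over the alternatives. Over all alternatives edgeR or DESeq2 adjusted p lay between 0.00496 and 0.147 for Col6a1 and between 0.00175 and 0.127 for Col6a2.

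Col6a4 had 1.46, 1.55 and 1.80 TPM in MyoD + F/R/C and 0.071, 0.16 and 0.059 TPM in +MyoD, a rise of 3.59 ± 0.46 (edgeR adjusted p = 6.72e-05) at a low level. Col6a5 and Col6a6 had log2 differences of 1.62 ± 0.66 and 1.66 ± 0.58 (edgeR adjusted p = 0.0986 and 0.0529) and were not called. With the MEF line as a block they became 1.97 and 1.92 (edgeR adjusted p = 0.0391 and 0.0119) and were called.

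The multiplexins rose a second time. Col15a1 had 298, 353 and 278 TPM in MyoD + F/R/C and 150.2, 79.6 and 72 TPM in +MyoD, a rise of 1.43 ± 0.24 (edgeR adjusted p = 0.000479). Col18a1 had 1169, 1077 and 535 TPM against 210.2, 336 and 323 TPM in +MyoD, a rise of 1.64 ± 0.28 (edgeR adjusted p = 0.000626). The groups did not overlap for either gene. In every condition at least 90.5% of Col18a1 TPM belonged to the transcript that starts at 77166548 on chromosome 10. Col26a1 had 22.1, 24.9 and 20.3 TPM in MyoD + F/R/C and 4.61, 8.73 and 6.21 TPM in +MyoD, a rise of 2.21 ± 0.47 (edgeR adjusted p = 0.0033) that was not called with counts scaled from TPM.

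Short-chain network collagens showed the strongest fall. Col10a1 had 0.22, 0.085 and 0.50 TPM in MyoD + F/R/C and 28.9, 12.4 and 12.2 TPM in +MyoD, a log2 difference of -6.09 ± 0.68 (edgeR adjusted p = 2.21e-05). Col8a1 had 14.5, 7.72 and 37.1 TPM against 161, 286 and 138 TPM in +MyoD, a difference of -3.38 ± 0.47 (edgeR adjusted p = 0.000115). Col8a2 had 0.66, 0.99 and 2.12 TPM against 5.79, 23.6 and 5.34 TPM in +MyoD, a difference of -4.20 ± 0.91 (edgeR adjusted p = 0.00373). All 3 genes were thus lower in each MyoD + F/R/C library than in any +MyoD library. Of 7 chondrocyte markers tested in this comparison, 0 were called higher and 1 lower (median log2 difference 0.06), beside 10.9% and 8.39% of all genes. Prg4 averaged 1.28 TPM in MyoD + F/R/C and 30.7 TPM in +MyoD. The part of chondrocyte-like cells was not tested.

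Fibrillar genes went both ways. Col2a1 had 0.88, 0.057 and 0.69 TPM in MyoD + F/R/C and 15.1, 6.56 and 3.80 TPM in +MyoD, a fall of 4.19 ± 0.68 on the log2 scale (edgeR adjusted p = 0.000431). Col11a1 had 9.80, 11.2 and 5.39 TPM against 62.4, 206 and 59.4 TPM in +MyoD, a difference of -3.80 ± 0.47 (edgeR adjusted p = 5.05e-05). Both cartilage fibril genes were low in all MyoD + F/R/C libraries. Col5a3, Col11a2, Col24a1 and Col27a1, the less abundant fibrillar chains, rose by 1.12 to 1.45. Of these Col11a2 was at a low level, with 1.58, 9.07 and 1.69 TPM in MyoD + F/R/C and 0.65, 0.89 and 0.57 TPM in +MyoD.

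The most abundant fibrillar chains were less clear. Col1a2 had 916, 1239 and 854 TPM in MyoD + F/R/C and 1143, 3503 and 1623 TPM in +MyoD, a difference of -1.13 ± 0.32 (edgeR adjusted p = 0.0193). The groups overlapped, and the difference became -0.47 without +MyoD line 2, with adjusted p between 0.0014 and 0.138 over the edgeR and DESeq2 alternatives. It was also not called without MyoD + F/R/C line 1 or line 3. Col1a1 had 1782, 2156 and 1336 TPM against 1699.5, 5792 and 1964 TPM in +MyoD and was not called (-0.95 ± 0.40, edgeR adjusted p = 0.108). With the MEF line as a block it was called (-0.79, edgeR adjusted p = 0.0453), as it was without +MyoD line 1 or line 3 (-1.29 and -1.22). Over all alternatives the Col1a1 difference ran from -1.29 to -0.061, with edgeR or DESeq2 adjusted p between 0.0199 and 0.913. Col3a1 had 2945, 3364 and 2288 TPM against 971, 2819.6 and 2781 TPM in +MyoD and was not called (0.28 ± 0.31, edgeR adjusted p = 0.597).

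The basement membrane network fell with F/R/C. Col4a1 had 1017, 784 and 1143 TPM in MyoD + F/R/C and 1923, 1383 and 1077 TPM in +MyoD, a difference of -0.67 ± 0.18 (edgeR adjusted p = 0.014). Col4a2 had 536, 402 and 532 TPM against 853, 866 and 626 TPM in +MyoD, a difference of -0.76 ± 0.15 (edgeR adjusted p = 0.00239). The Col4a1 groups overlapped in line 3, and its call was lost without +MyoD line 1 (-0.52) or MyoD + F/R/C line 2 (-0.56), with adjusted p between 0.000558 and 0.125 over the edgeR and DESeq2 alternatives. The Col4a1 and Col4a2 calls were both lost in the fit of only the 6 libraries compared (-0.65 and -0.74), where the edgeR adjusted p of Col4a2 was 0.0584, its highest over the alternatives. Col4a5 and Col4a6, given here as the remaining X-linked pair and chosen after their values were seen, fell further. Col4a5 had 7.37, 10.5 and 15.6 TPM against 60.4, 65.2 and 47.8 TPM in +MyoD, a difference of -2.59 ± 0.22 (edgeR adjusted p = 2.78e-06). Col4a6 had 0.63, 0.48 and 0.68 TPM against 2.16, 2.63 and 3.97 TPM in +MyoD, a difference of -2.35 ± 0.28 (edgeR adjusted p = 3.94e-05).

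Col7a1 had 87.7, 110.4 and 66.1 TPM in MyoD + F/R/C and 341, 137 and 112 TPM in +MyoD, a difference of -1.32 ± 0.32 (edgeR adjusted p = 0.00833). Without +MyoD line 1 the difference became -0.71 and was still called, but the call was lost in the fit of only the 6 libraries compared (-1.31), with adjusted p up to 0.0937 over the edgeR and DESeq2 alternatives. Col28a1, found around peripheral nerves in mice, had 2.05, 2.03 and 2.12 TPM against 3.92, 2.65 and 5.67 TPM in +MyoD, a difference of -1.16 ± 0.31 (edgeR adjusted p = 0.0139), which was lost without +MyoD line 3 (-0.86) or MyoD + F/R/C line 3 (-1.08). Col12a1 and Col16a1 were not called at 0.75 ± 0.39 and -0.28 ± 0.20 (edgeR adjusted p = 0.207 and 0.377), and without +MyoD line 2 Col12a1 was called at 1.33.

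**Figure D4:**
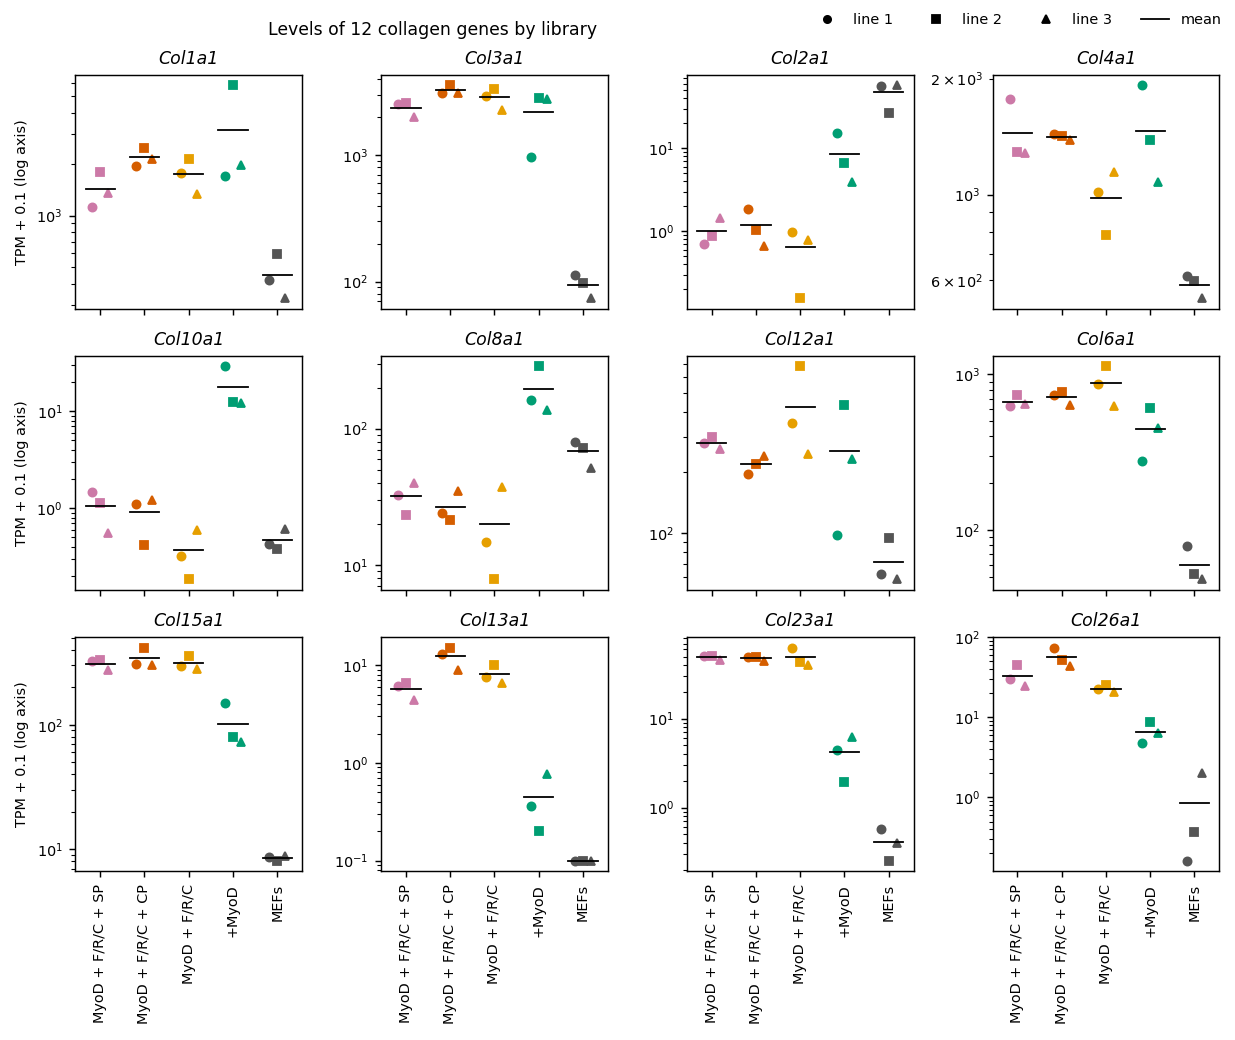
TPM plus 0.1 on a log axis for 12 collagen genes in every library, with conditions along the x axis, symbols for the MEF lines and a bar at the mean. Col10a1 and Col8a1 are high in +MyoD alone among the transfected conditions, whereas Col13a1, Col23a1, Col15a1 and Col26a1 stand above +MyoD in each library with F/R/C.

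MyoD + F/R/C was also set against MEFs, which share libraries with both comparisons above. There 31 members were called higher, 6 lower and 7 were not called in edgeR, beside 26.6% and 21.6% of all genes. The 6 lower genes were Col2a1, Col11a1, Col4a3, Col4a5, Col4a6 and Col8a1. Col8a1 had 14.5, 7.72 and 37.1 TPM in MyoD + F/R/C and 79.7, 72.5 and 51.7 TPM in MEFs (-2.01 ± 0.44, edgeR adjusted p = 0.00125). Col2a1 stood at -6.97 ± 0.75 (edgeR adjusted p = 1.73e-06). Col13a1, with 1659 counts over the MyoD + F/R/C libraries and 0 in MEFs, was at least 555-fold higher, and Col6a5, with 1150 counts against 3, had a ratio of 384 (95% counting interval 131 to 1867). Col23a1 was higher by 7.25 ± 0.43 and Col25a1 by 6.79 ± 0.29 (edgeR adjusted p = 4.83e-09 and 1.95e-10). Col10a1 was not called (-0.69 ± 0.63, edgeR adjusted p = 0.385, 95% interval -2.02 to 0.65). Col4a1 was called at 0.52 ± 0.18 (edgeR adjusted p = 0.0237) and Col4a2 was not at 0.50 ± 0.15, since it missed the fold threshold. The Col4a1 call was lost on leaving out line 1 or line 3 of either condition (0.41 to 0.52). It was also lost with counts scaled from TPM (0.496) and without the filter on low counts (0.489). Col4a2 was called in DESeq2 and with DESeq2 size factors (0.515 in both), and without MEF line 2 (0.531) or MyoD + F/R/C line 2 (0.5995).

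The steps can be read together as counts. Both steps called 14 genes higher, namely Col5a3, Col11a2, Col24a1, Col27a1, Col19a1, Col6a1, Col6a2, Col6a3, Col15a1, Col18a1, Col13a1, Col23a1, Col25a1 and Col26a1. For Col11a2 the first call rests on counts, since its mean TPM was 0.71 in +MyoD and 0.74 in MEFs. A further 12 were higher after MyoD mRNA and then lower with F/R/C, namely Col1a2, Col5a1, Col11a1, Col4a1, Col4a2, Col4a5, Col4a6, Col7a1, Col8a1, Col8a2, Col10a1 and Col28a1. Another 11 were higher in the first step and not called in the second, and Col2a1 was lower in both. Since the steps share the +MyoD libraries, these counts describe the calls and test nothing further. The share of all genes with each pair of calls was not set beside them.

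Ratios between chains that share a trimer, and between the type III and type I chains, were compared on the TPM of the most abundant transcript of each gene, because short transcripts inflate some gene sums. Col1a1 to Col1a2 was 1.71 ± 0.12 in MyoD + F/R/C, 1.43 ± 0.22 in +MyoD and 1.04 ± 0.20 in MEFs. With SP it was 2.01 ± 0.29 and with CP 2.0 ± 0.13. Type I collagen is usually built from a pair of Col1a1 chains and a single Col1a2 chain. Col4a1 to Col4a2 stayed between 1.28 ± 0.13 and 1.43 ± 0.04 over the 5 conditions. Col5a1 to Col5a2 was 0.69 ± 0.02 in MyoD + F/R/C, 1.14 ± 0.19 in +MyoD and 0.65 ± 0.02 in MEFs, so that +MyoD stood apart. Col6a1 to Col6a2 was 1.42 ± 0.07, 2.0 ± 0.40 and 1.93 ± 0.28 in the same order, and Col3a1 to Col1a1 was 1.05 ± 0.08, 0.53 ± 0.29 and 0.17 ± 0.06. These ratios are descriptions (SD, n = 3 each) without a test.

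SP or CP was then added to MyoD + F/R/C to ask whether JNK or JAK inhibition changed the family further. No collagen gene was called in edgeR for SP versus F/R/C alone, CP versus F/R/C alone or CP versus SP. Of all genes, 0.00%, 0.0362% and 0.197% were called in these comparisons. Unadjusted p under 0.05 was reached by 5, 11 and 3 of the 44 genes, beside 6.62%, 7.91% and 4.01% of all genes tested. DESeq2 called 0, 1 and 0 collagen genes in the same order. The shares of all genes above are from edgeR, so the DESeq2 counts stand without such a share. The median log2 difference over the members was -0.06, 0.20 and 0.29.

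The type IV network was the member pair with the smallest p in both additions. Col4a2 had 585, 645 and 647 TPM in MyoD + F/R/C + SP, 759, 740.4 and 700.1 TPM in MyoD + F/R/C + CP and 536, 402 and 532 TPM in MyoD + F/R/C. The log2 difference was 0.54 with SP (95% interval 0.21 to 0.87, edgeR adjusted p = 0.643) and 0.58 with CP (0.25 to 0.91, edgeR adjusted p = 0.252). All libraries with SP or CP were above all MyoD + F/R/C libraries. DESeq2 called Col4a2 with CP (0.57), with adjusted p between 0.0349 and 0.815 over the alternatives. Col4a1 had 1769, 1290.0 and 1286 TPM with SP, 1439, 1421 and 1384 TPM with CP and 1017, 784 and 1143 TPM with F/R/C alone. Its differences were 0.58 (0.20 to 0.96) and 0.63 (0.25 to 1.02), with edgeR adjusted p of 0.655 and 0.281.

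Col26a1 was the member with the next smallest p for CP. It had 73.7, 52.1 and 42.9 TPM in MyoD + F/R/C + CP and 22.1, 24.9 and 20.3 TPM in MyoD + F/R/C, a difference of 1.39 (95% interval 0.44 to 2.35, edgeR adjusted p = 0.379). The groups did not overlap, and it was called when only these 6 libraries were fitted (1.39), with edgeR or DESeq2 adjusted p between 0.0406 and 0.911 over the alternatives. With SP it had 29.9, 44.2 and 24.7 TPM. Col10a1 had 1.35, 1.03 and 0.45 TPM with SP and 1.01, 0.32 and 1.13 TPM with CP, against 0.22, 0.085 and 0.50 TPM with F/R/C alone, differences of 1.94 (0.65 to 3.24) and 1.63 (0.33 to 2.93) at levels far under those of +MyoD. Col12a1 had 196, 221 and 241 TPM with CP and 355, 677 and 246 TPM with F/R/C alone, a difference of -1.04 (-1.89 to -0.20). Col1a1 and Col3a1 had intervals that included 0 in both additions. A p that misses the threshold does not show that SP or CP left these genes alone, since most intervals allow changes over the fold threshold.

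**Figure D5:**
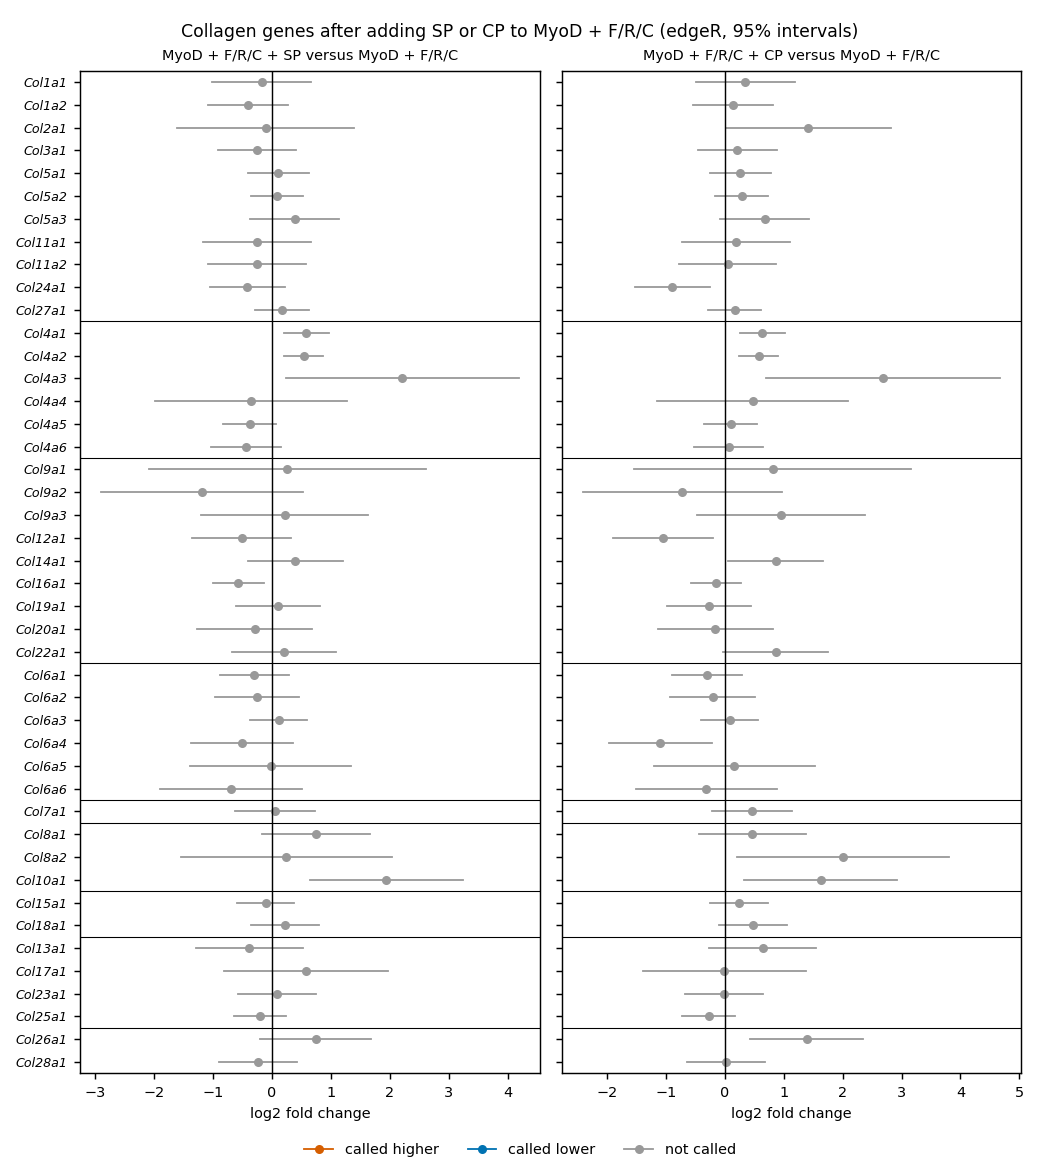
Log2 fold changes (points) with 95% intervals (lines) for the 44 collagen genes in MyoD + F/R/C + SP versus MyoD + F/R/C (left) and MyoD + F/R/C + CP versus MyoD + F/R/C (right). No gene is called in either panel, and the intervals of Col4a1, Col4a2 and Col10a1 lie above 0 in both.

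Genes that fold and modify collagen in the endoplasmic reticulum were followed as a list. Of 20 such genes, 15 were called higher and 0 lower in +MyoD versus MEFs (median log2 difference 0.997), beside 22.8% and 18.0% of all genes. Fkbp14, a prolyl isomerase, rose by 1.94 ± 0.19, and P3h3 and P3h2, prolyl hydroxylases, rose by 2.31 ± 0.28 and 1.45 ± 0.21 (edgeR adjusted p = 1.07e-06, 7e-06 and 4.51e-05). Tmem38b, an ion channel of this compartment, rose by 1.73 ± 0.20 (edgeR adjusted p = 4.97e-06). With F/R/C added, 1 was higher and 7 lower than in +MyoD (median -0.52), beside 10.9% and 8.39% of all genes. The genes that fell included Fkbp10 (-1.28 ± 0.13), the lysyl hydroxylase Plod2 (-1.56 ± 0.22), P3h4 (-1.06 ± 0.15) and the prolyl hydroxylase subunit P4ha3 (-2.31 ± 0.40; edgeR adjusted p = 1.37e-05, 0.000124, 0.000129 and 0.000743).

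Procollagen is trimmed and crosslinked outside the cell. Of 14 genes for these steps, 11 were called higher and 2 lower in +MyoD versus MEFs (median 1.60), beside 22.8% and 18.0% of all genes. Bmp1, the C-proteinase, rose by 1.62 ± 0.12, its enhancer Pcolce by 1.54 ± 0.18, the N-proteinase Adamts2 by 3.12 ± 0.32 and the lysyl oxidase Loxl3 by 1.64 ± 0.20 (edgeR adjusted p = 5.61e-08, 4.95e-06, 1.35e-06 and 9.63e-06). With F/R/C, 2 were higher and 8 lower than in +MyoD (median -0.78), beside 10.9% and 8.39% of all genes. The genes that fell included Loxl4 (-3.07 ± 0.25), Loxl3 (-2.17 ± 0.21), the C-proteinase homologue Tll1 (-4.06 ± 0.47) and Pcolce (-1.51 ± 0.18; edgeR adjusted p = 1.73e-06, 6.27e-06, 2.88e-05 and 3.43e-05). Tll1 was also lower in +MyoD than in MEFs (-1.43 ± 0.41, edgeR adjusted p = 0.01).

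Of 10 receptor genes 9 were tested. In +MyoD versus MEFs 5 were higher and 1 lower (median 0.99), beside 22.8% and 18.0% of all genes. In MyoD + F/R/C versus +MyoD 1 was higher and 4 lower (median -0.31), beside 10.9% and 8.39% of all genes. The count of 1 higher among 9 is close to the share of all genes. The integrin chains Itga1 and Itga10 rose by 3.10 ± 0.21 and 2.60 ± 0.32 after MyoD mRNA, Mrc2, an uptake receptor for collagen, rose by 2.90 ± 0.20 and Itga2 fell by 2.75 ± 0.29 (edgeR adjusted p = 3.45e-08, 9.88e-06, 4.02e-08 and 2.08e-06). With F/R/C, the shared β chain Itgb1 (-1.66 ± 0.22), Mrc2 (-1.31 ± 0.19) and Itga11 (-3.36 ± 0.77) fell, while Itga2 rose (1.37 ± 0.28; edgeR adjusted p = 9.78e-05, 0.000174, 0.00539 and 0.0025). No gene of the 3 lists was called with SP or CP in edgeR. An unadjusted p under 0.05 was reached with SP by 1 processing gene, and with CP by 1 folding and 3 processing genes, out of 20 folding and 14 processing genes (6.62% of all genes with SP and 7.91% with CP).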

How the data were processed

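RNA was extracted from 15 cultures, and stranded poly-A libraries were read single-end by the authors. Their processing notes name bcl2fastq 2.20, fastp 0.20.0 and kallisto 0.46.1 with GRCm38.p6. The deposited files hold estimated counts per transcript, not normalized, which were summed per gene with GENCODE annotation of GRCm38 and rounded. They also hold TPM, which the authors' kallisto run scaled to transcript length and a fixed total per library. Of 121843 transcripts, 121104 matched the annotation. kallisto divides reads shared by similar transcripts between them.

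Genes were tested in edgeR 4.0.16 (quasi-likelihood test, TMM, filterByExpr with a minimum count of 10, all 15 libraries, 10 residual degrees of freedom), with Benjamini-Hochberg adjustment over 19331 genes. SE is the log2 fold change divided by the square root of F. DESeq2 1.42.0, DESeq2 size factors, no filter, counts scaled from TPM, only the 6 libraries compared and each library left out were alternatives. A fit of the 9 libraries with F/R/C was added after the data were seen. The members, lists and tests were chosen with earlier results of these data known.

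Named genes were the 2 most abundant members of each class, up to 3 called members at either end of the log2 fold changes in each comparison (at least 1 TPM in the higher group), partner chains, and up to 4 genes per list with the smallest p. Replicate numbers name MEF lines, each from 1 embryo, and so pair the libraries. Same-line deviations correlated at 0.074 on average (30 pairs) and different lines at -0.037 (60 pairs). Values were centred within each condition of 3 lines, so the second mean follows largely from the first. Each of the 15 libraries had its highest mean correlation with the libraries of its own line in other conditions. On simulated counts for +MyoD versus MEFs (16532 genes run), 45.6% of tested 2-fold and 57.6% of tested 4-fold changes were called, with a median fitted size of 1.05 and 1.91 on the log2 scale, and 3 of 16357 unchanged genes were called. Counting intervals cover counting error only.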

Additional observations from a re-analysis of the deposited data

How the results depend on the processing

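For 22 summary values, 213 alternative results were labelled unchanged, 4 counts moved and 3 sums changed sign. A count was labelled unchanged when it equalled the main count or lay within a fixed ratio of it. The rule for counts does not use the spread between replicates. Fitting only the 6 libraries compared gave 9 collagen genes higher and 7 lower in MyoD + F/R/C versus +MyoD (15 and 14 with all libraries), and 1 higher in MyoD + F/R/C + CP versus MyoD + F/R/C, where DESeq2 also gave 1 and the other fits 0. Leaving out single libraries gave 34 to 36 higher in +MyoD versus MEFs, 10 to 18 higher and 12 to 14 lower in MyoD + F/R/C versus +MyoD, and 30 to 33 higher in MyoD + F/R/C versus MEFs. The share of all genes called was not set beside these alternative counts. With the MEF line as a block (replicate block), 17 were higher and 15 lower in MyoD + F/R/C versus +MyoD; it changed no named gene's call beyond Col1a1, Col6a5 and Col6a6.

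The log2 ratio of summed TPM in MyoD + F/R/C versus +MyoD changed sign without a library. It was -0.41 for fibrillar genes (-0.70 to 0.10, the positive value without +MyoD line 2) and -0.12 for all collagens (-0.31 to 0.24, positive without +MyoD line 2 at 0.24 or without MyoD + F/R/C line 3 at 0.02). Values near 0 that changed sign were Col3a1 in MyoD + F/R/C versus +MyoD (-0.0771 without +MyoD line 1, up to 0.597 without +MyoD line 2), Col1a1 with SP versus without (0.0533 without MyoD + F/R/C line 2, down to -0.36 without line 3), and, with CP versus SP, Col4a1 (-0.0458 with counts scaled from TPM, -0.0018 to 0.167 on leaving out libraries, lowest without MyoD + F/R/C + SP line 2) and Col4a2 (-0.018 to 0.133 on leaving out libraries, lowest without the same library, and 0.221 with counts scaled from TPM). Over 102 results of named genes, 1187 alternatives kept the call and direction, 33 lost and 22 gained a call. The cause of these changes was not tested.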

Other observations

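Transcript make-up differed between genes in ways that bear on gene-level TPM. The full-length coding transcript carried 56.7 to 67.2% of Col4a1 TPM and 58.3 to 66.9% of Col3a1 TPM over the 5 conditions, the rest being assigned to other transcripts of these genes. For Col1a2 and Col6a1 the main transcript carried 97.7 to 98.8% and 99.9 to 100%. The most abundant Col7a1 transcript was annotated as retained intron (26.3 to 38.7%), and that of Col19a1 as a processed transcript (27.3 to 55.3%).

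Col17a1, in epithelia a hemidesmosome collagen, had 0.15, 0.86 and 3.47 TPM in lines 1 to 3 of MyoD + F/R/C + SP, and Col4a3 had 1.32, 0.11 and 1.17 TPM in +MyoD. Lines of 1 condition thus differed widely in TPM for both genes at these low levels. Their counts differed less, at 23, 72 and 52 for Col17a1 and 28, 16 and 39 for Col4a3. In these conditions 83.4% of Col17a1 TPM was assigned to a processed transcript and 40.4% of Col4a3 TPM to a nonsense-mediated decay transcript.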
